A study of Rattus norvegicus with 12 samples.

Results

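Neurexins and neuroligins are adhesion proteins that meet across the synaptic cleft, and their transcripts were followed here in cultured rat hippocampal neurons whose fast glutamate receptors had been blocked. The members were Nrxn2, Nrxn3, Nlgn1, Nlgn2 and Nlgn3. They were found by matching the transcript that each array probe targets to these 5 rat gene symbols. This gave 9 of the 30367 probes on the array, or 5 of 15154 named genes: 3 probes for Nrxn2, 2 each for Nrxn3 and Nlgn2, and 1 each for Nlgn1 and Nlgn3. Other genes of the family were not analysed here.

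A neurexin sits mainly in the presynaptic membrane and binds several kinds of postsynaptic receptor, of which the neuroligins are the best known. Neuroligin 1 is found chiefly at glutamatergic synapses and neuroligin 2 at inhibitory synapses, while neuroligin 3 occurs at both. Each neurexin gene makes a long alpha form and a short beta form from separate promoters, and alternative splicing then decides which partners a neurexin can hold. Synaptic adhesion genes are often studied in long silencing of neurons because synapses adjust their strength to the level of input.

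Hippocampal neurons of Wistar rat embryos at day 18 were cultured for 14 to 15 days in vitro. They were left untreated, or received 50 µM GYKI-52466, which blocks AMPA receptors, together with 10 µM MK-801, which blocks open NMDA receptor channels; RNA was taken after 9 h or 26 h. The 4 groups were untreated 9 h, blocked 9 h, untreated 26 h and blocked 26 h, with 3 independent cultures each. All were kept in the same medium for neurons, and the labels name no other agent or allele; markers of glia were read as well as those of neurons. Total RNA (200 ng) of each culture was labelled with Cy3 and read on a single-colour Agilent array. A level below is log2 of the probe's processed signal relative to the array's 75th percentile, so that 0 is a bright probe of that array and 1 unit is a 2-fold step. Levels of different probes are not compared, since probes differ in brightness for the same amount of RNA.

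The arrays lay in pairs on 6 slides that were scanned on 2 days, per the headers of the scanner output. Day 1 held the untreated 9 h and the blocked 26 h arrays, and day 2 held the blocked 9 h and the untreated 26 h arrays. The comparison of blocked with untreated arrays averaged over both times is therefore balanced over days, as is the comparison of 26 h with 9 h averaged over treatment. At 1 time alone, blockade and scan day cannot be told apart, and the contrast between days is the same as the test of whether the blockade effect differs between times. From 77.6% to 86.8% of the spots of an array were well above background, and all 9 member probes were so on all 12 arrays, with none saturated. Among activity genes, all 5 checked fell in the average comparison (limma with Benjamini-Hochberg adjustment over all kept probes), Bdnf by 2.59 ± 0.105 on the log2 scale (SE, adjusted p = 4.36e-06), Arc by 2.79 (0.000529), Fos by 1.74 (0.000626) and Nr4a1 by 2.56 (0.000301). Npas4 (adjusted p = 0.000208) was 2.65 lower at 9 h and at least 58-fold lower at 26 h, where its blocked arrays were not well above background. All 12 pan-neuronal markers were measured and none passed in that comparison (5 had an unadjusted p under 0.05). Replicate 3 stood apart in markers of meninges and fibroblasts, whose summed signal was 4.09 times that of the other replicates.

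The 3 neuroligin genes had their higher means in the same 2 of the 4 groups, blocked 9 h and untreated 26 h, as described below. These are the groups of scan day 2, and 27.8% of all kept probes passed an adjusted p of 0.05 between the days (limma). The Nrxn2 probes A_44_P198804 and A_64_P121698 and the Nrxn3 probe A_64_P080530 had their higher means in the same groups. The 250 bases before the start sites of the neuroligin genes are shown to let their promoters be set side by side. The sequences are from RefSeq on GRCr8 and run 5′ to 3′ on the strand of the gene, with capitals marking CpG dinucleotides.
Nlgn1, chr2:110930677-110930926, minus strand: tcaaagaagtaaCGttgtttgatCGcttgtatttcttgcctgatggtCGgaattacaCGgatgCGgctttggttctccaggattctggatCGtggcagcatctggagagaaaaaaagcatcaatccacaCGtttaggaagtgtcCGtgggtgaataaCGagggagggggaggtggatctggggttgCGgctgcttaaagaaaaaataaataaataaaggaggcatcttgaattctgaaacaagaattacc
Nlgn2, chr10:55056579-55056828, minus strand: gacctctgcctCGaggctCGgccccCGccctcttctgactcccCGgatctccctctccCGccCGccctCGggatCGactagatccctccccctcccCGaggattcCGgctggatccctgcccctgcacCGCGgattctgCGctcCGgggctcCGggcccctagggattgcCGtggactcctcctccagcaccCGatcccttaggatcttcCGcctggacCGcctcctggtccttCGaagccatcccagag
Nlgn3, chrX:70469228-70469477, plus strand: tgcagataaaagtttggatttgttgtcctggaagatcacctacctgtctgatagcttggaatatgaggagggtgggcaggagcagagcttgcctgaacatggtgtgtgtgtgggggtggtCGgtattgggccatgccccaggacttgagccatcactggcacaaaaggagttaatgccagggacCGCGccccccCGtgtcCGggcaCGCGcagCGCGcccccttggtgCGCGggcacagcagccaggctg
The promoter table used here holds 3 of the 5 members, and Nrxn2 and Nrxn3 are named only. The Nlgn2 window was the richest in G and C of the 3, with 69.2% and 20 CpG, against 60.0% and 11 CpG for Nlgn3 and 44.4% and 10 CpG for Nlgn1. The median of 33469 rat promoters of the same length was 51.2% and 5 CpG. Motifs of activity-regulated factors were searched on both strands of these windows. TGACG and TGACGTCA (the cyclic AMP response element, the first contained in the second), TGANTCA (AP-1), CACGTG (E-box) and GCGTGGGCG (Egr) occur in 18.22%, 1.59%, 6.34%, 5.59% and 0.48% of all promoters, and none of them was found in the 3 windows.

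Averaged over 9 h and 26 h, blockade changed none of the 9 neurexin and neuroligin probes past an adjusted p of 0.05, against 4.33% of the 24024 kept probes. Without adjustment 1 member probe, that of Nlgn1, had p under 0.05, against 16.2% of all kept probes. The median effect over the 9 probes was 0.077 log2, with 7 probes positive and 2 negative (normexp background correction turned 1 of the 7, the Nlgn2 probe A_43_P13011, to -0.031), beside a median of -0.016 over all kept probes. The intervals bound how large an average effect could be. For Nrxn2, the 3 probes differed by 0.091 ± 0.061 (SE; 95% interval -0.045 to 0.23), 0.12 ± 0.12 (-0.15 to 0.39) and 0.077 ± 0.081 (-0.10 to 0.26) log2. For Nrxn3 the values were -0.16 ± 0.13 (-0.44 to 0.12) and -0.19 ± 0.13 (-0.47 to 0.090). The Nlgn2 probes differed by 0.012 ± 0.073 (-0.15 to 0.18) and 0.049 ± 0.115 (-0.21 to 0.31), and that of Nlgn3 by 0.22 ± 0.14 (-0.090 to 0.53). Of the 9 probes, the Nlgn2 probe A_43_P13011 had the tightest bound around no change, with no bound beyond 0.175 log2 in either direction. The interval of the other Nlgn2 probe, A_64_P030188, reached 0.305. That was beyond the 0.228 of the Nrxn2 probe A_44_P172825, whose SE of 0.061 was the smallest of the 9.

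Nlgn1 had the largest average difference, 0.35 ± 0.12 log2 (95% interval 0.073 to 0.62, or 5.2% to 53.6% higher; unadjusted p = 0.0181, adjusted p = 0.176 in limma). Blocked exceeded untreated in 4 of 6 same-numbered pairs. Same-numbered blocked and untreated arrays deviated together, so the replicate number was also fitted as a block, which gave an adjusted p of 0.0521 and still no member probe called, against 12.6% of all probes in that fit. With the slide as a random block Nlgn1 passed (adjusted p = 0.0244), where 13.9% of all probes did. Within day 1, blocked 26 h minus untreated 9 h was 0.93, and within day 2, blocked 9 h minus untreated 26 h was -0.24; each sets different times against each other.

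**Figure D1:**
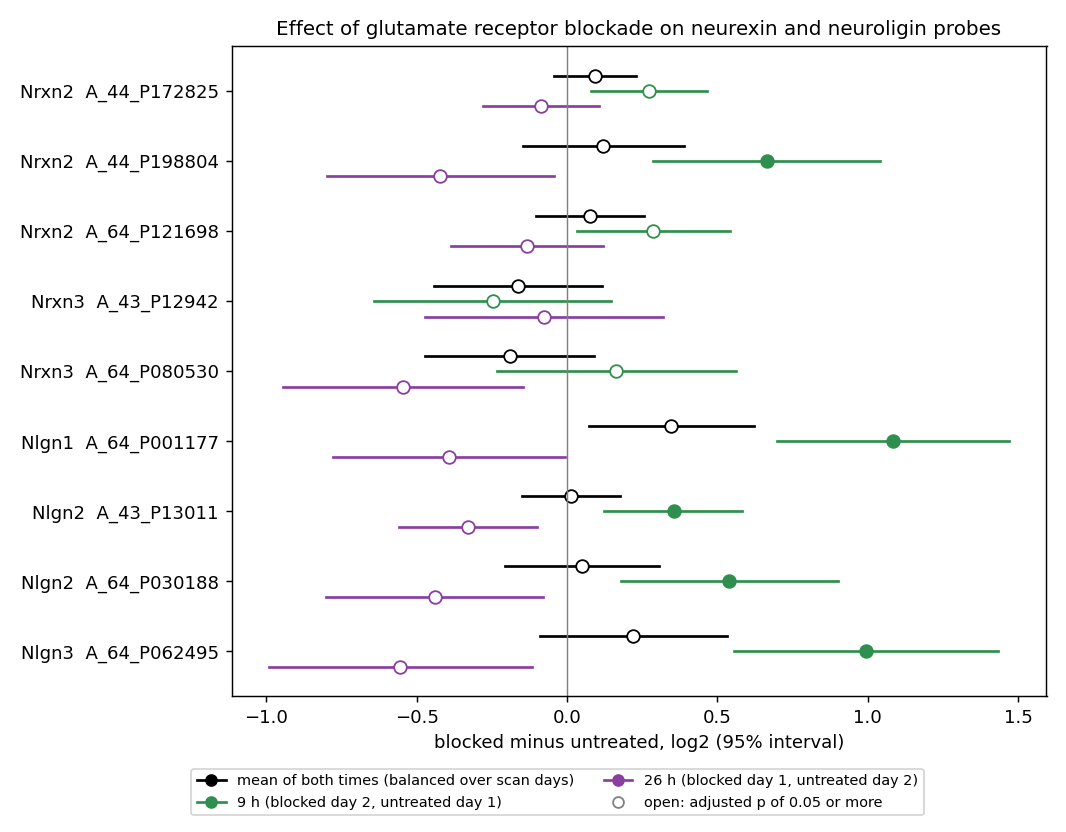
Difference between blocked and untreated arrays for each of the 9 probes (log2, x axis) with 95% intervals from limma, averaged over both times (black), at 9 h (green) and at 26 h (purple); filled points have an adjusted p under 0.05. The black points lie between -0.19 and 0.35 and none is filled, while the green points lie mostly right of 0 and all purple points left of it.

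At single times, 8 of 9 probes had effects of opposite sign at 9 h and 26 h, of varied size. The Nrxn3 probe A_43_P12942 was lower in blocked cultures at each time (-0.25 and -0.077 log2). At 9 h, 8 of 9 probes were higher in blocked cultures and 5 passed the threshold, all higher, where 20.2% of all kept probes passed and 11.5% passed higher. At 26 h, 9 of 9 probes were lower in blocked cultures and none passed, against 15.5% of all probes; 6 had an unadjusted p under 0.05, as had 31.7% of all probes. Quantile normalization turned 1 of these 9, the Nrxn2 probe A_44_P172825, to 0.069, and the Nrxn3 probe A_43_P12942 came to 0.089 without untreated 26 h replicate 1 and to 0.014 without blocked 26 h replicate 3. With the replicate block, 7 probes were higher at 9 h (34.7% of all probes passed in that fit) and 4 were lower at 26 h (30.9%), namely both Nlgn2 probes (adjusted p = 0.0312 and 0.0425), Nlgn3 (0.0193) and the Nrxn3 probe A_64_P080530 (0.00801). In each case the higher group had been scanned on day 2. In the direct contrast of day 2 with day 1, which is also the contrast of the blockade effect between times, 5 of 9 probes passed higher, against 27.8% of all probes passing and 15.8% passing higher.

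**Figure D2:**
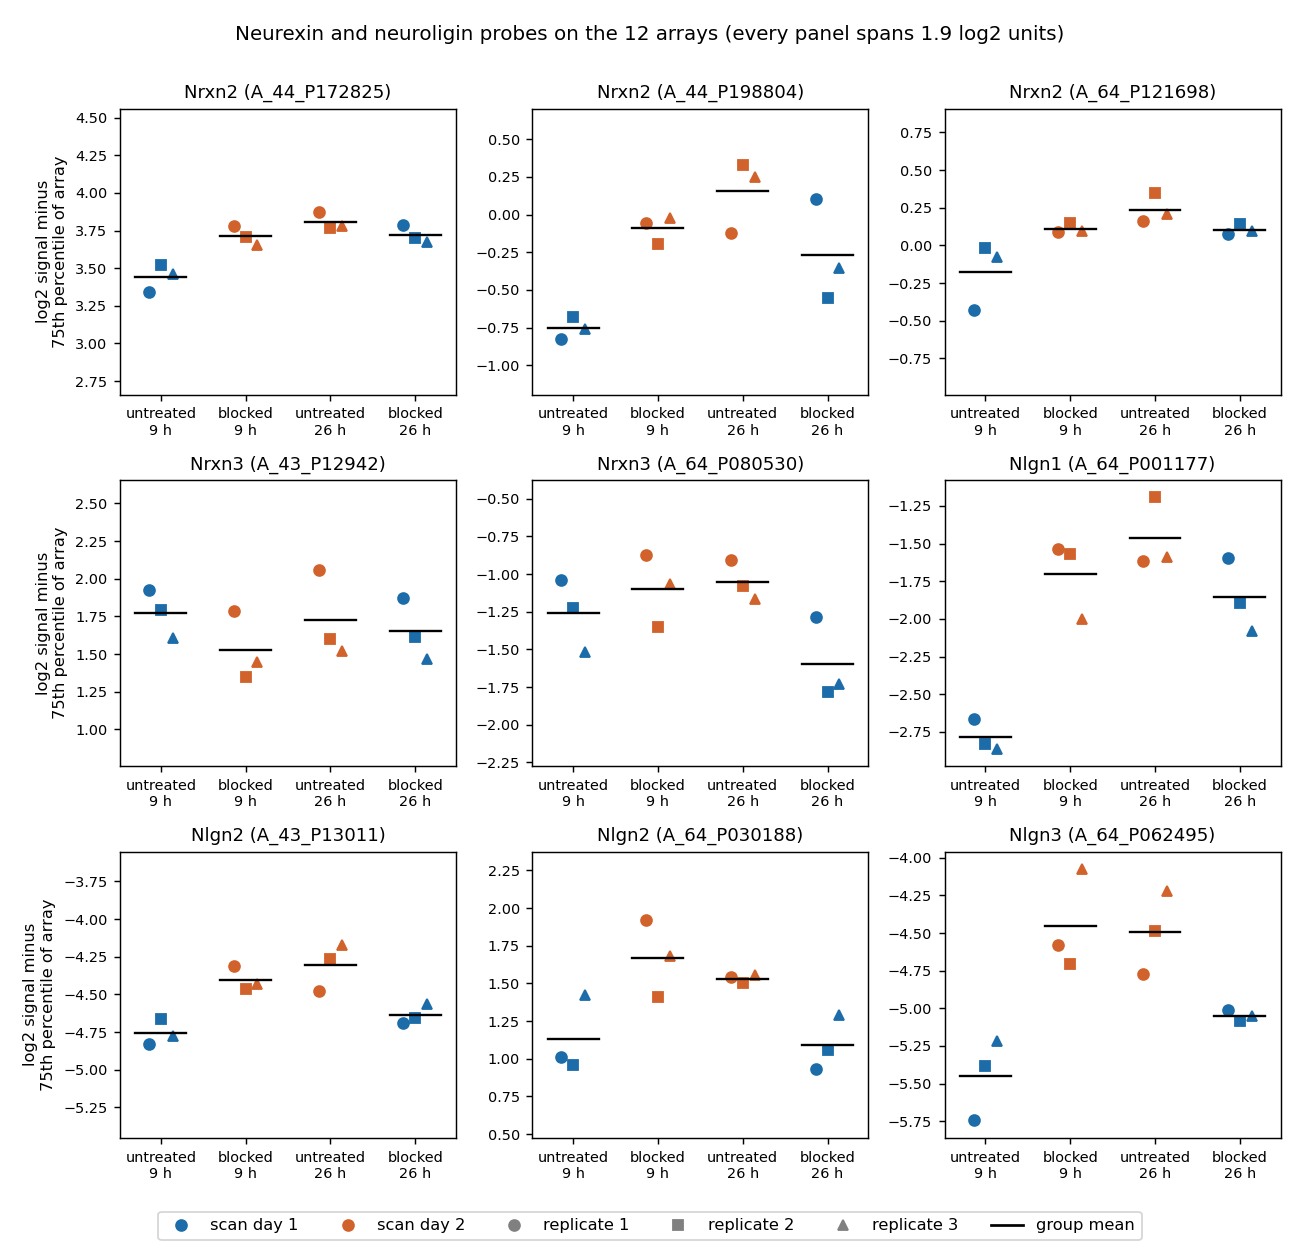
Level of each neurexin and neuroligin probe on each of the 12 arrays (y axis, log2 signal relative to the array's 75th percentile) by group, coloured by scan day, with symbols for the replicate number and a line at the group mean. For the 3 neuroligins the orange day 2 groups lie above the blue day 1 groups in their means, and the 3 untreated 9 h arrays of Nlgn1 lie at -2.86 to -2.66, below its other 9.

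Nlgn1 (A_64_P001177), whose protein recruits glutamate receptors to excitatory contacts, had levels of -2.66, -2.83 and -2.86 on the untreated 9 h arrays and of -1.53, -1.57 and -2.003 on the blocked 9 h arrays. At 26 h the levels were -1.62, -1.19 and -1.59 without blockade and -1.60, -1.90 and -2.08 with it. The untreated 9 h cultures were thus below every other array, and the other 3 groups overlapped with their neighbours in the order blocked 26 h, blocked 9 h, untreated 26 h. The difference at 9 h was 1.085 ± 0.174 log2 (2.12-fold, adjusted p = 0.00283 in limma, higher in 3 of 3 pairs), and at 26 h it was -0.39 ± 0.17 (adjusted p = 0.152). The 9 h call was lost without the 4 arrays of replicate 2 (0.995 log2, adjusted p = 0.125), a fit in which no probe of the array passed at 9 h.

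Nlgn1 was also the only member probe to pass in the comparison of 26 h with 9 h averaged over treatment, in which 12.6% of all kept probes passed and 4.71% passed higher. It was 0.58 ± 0.12 log2 higher at 26 h (95% interval 0.31 to 0.85, 1.5-fold, adjusted p = 0.0136 in limma). Its mean rose by 1.32 between the times in untreated cultures and was 0.16 lower at 26 h in blocked cultures. The call was lost without the arrays of replicate 1 (0.63, adjusted p = 0.061), replicate 2 (0.545, 0.191) or replicate 3 (0.57, 0.0948), and was kept on leaving out any single array. The nearest to it among the other members were the Nrxn2 probes A_44_P198804 (0.37, adjusted p = 0.0762) and A_44_P172825 (0.185, 0.0771), which did not pass.

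Nlgn2, the gephyrin-binding neuroligin of inhibitory synapses, was read by a bright and a dim probe. On the bright probe, A_64_P030188, the levels at 9 h were 1.01, 0.96 and 1.425 without blockade and 1.92, 1.41 and 1.68 with it. At 26 h they were 1.54, 1.502 and 1.55 without blockade and 0.93, 1.06 and 1.29 with it. The groups thus overlapped at 9 h by a single pair of arrays and parted at 26 h, with the blocked arrays below. The dim probe, A_43_P13011, had levels of -4.83, -4.66 and -4.77 on untreated and -4.31, -4.465 and -4.43 on blocked 9 h arrays, and of -4.48, -4.26 and -4.17 on untreated and -4.69, -4.65 and -4.56 on blocked 26 h arrays. As on the bright probe, the means of untreated 9 h and blocked 26 h were the lower ones, and here the blocked and untreated groups parted at both times.

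In order of the means, blocked 26 h and untreated 9 h were the low groups of the bright Nlgn2 probe and overlapped, as did the 2 high groups, untreated 26 h and blocked 9 h. The effects at 9 h were 0.54 ± 0.16 log2 for the bright probe (adjusted p = 0.0408 in limma) and 0.35 ± 0.10 for the dim probe (0.0359), each higher in 3 of 3 pairs. The effects at 26 h were -0.44 ± 0.16 (0.0957) and -0.33 ± 0.10 (0.0565), each lower in 3 of 3 pairs. The 9 h call of the bright probe was lost without any 1 of 8 arrays (untreated 9 h replicates 1 and 2, blocked 9 h replicates 1 and 3, all untreated 26 h arrays and blocked 26 h replicate 2; adjusted p from 0.0522 to 0.146), and without the arrays of replicate 1 (0.355 log2, 0.277), 2 (0.58, 0.225) or 3 (0.68, 0.0742). That of the dim probe was lost without any 1 of 9 arrays (all 9 h arrays, untreated 26 h replicate 2 and blocked 26 h replicates 2 and 3; 0.0513 to 0.123), without those of any replicate number (0.139 to 0.232), with the slide as a random block (0.0697), with normexp background correction (0.147) and with quantile normalization (0.0851).

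Nlgn3 (A_64_P062495), the neuroligin of both synapse classes, was dim, with processed signals of 68.8 to 156.5. Its levels at 9 h were -5.74, -5.38 and -5.22 without blockade and -4.58, -4.71 and -4.08 with it, and at 26 h they were -4.77, -4.48 and -4.22 without blockade and -5.01, -5.09 and -5.05 with it. Blocked arrays lay above untreated ones at 9 h and below them at 26 h, with no overlap at either time. The 2 high groups, blocked 9 h and untreated 26 h, overlapped and lay above the other groups on every array, and the 3 blocked 26 h arrays lay above all 3 untreated 9 h arrays. The effect was 0.99 ± 0.20 log2 at 9 h (1.99-fold, adjusted p = 0.00708 in limma, 3 of 3 pairs) and -0.555 ± 0.197 at 26 h (0.0853, lower in 3 of 3 pairs). The 9 h call was lost without the arrays of replicate 1 (0.91, adjusted p = 0.0516) or replicate 2 (1.15, 0.137), and with normexp background correction the effect was 0.63 and stayed past the threshold.

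Nrxn2 was read by 3 probes, and the deposited files used here do not say which of its alpha and beta forms each probe reads. The most responsive probe, A_44_P198804, had levels of -0.82, -0.68 and -0.76 on untreated and -0.056, -0.20 and -0.022 on blocked 9 h arrays. At 26 h the levels were -0.12, 0.33 and 0.25 without blockade and 0.10, -0.55 and -0.355 with it. The untreated 9 h arrays again lay below all others, and the remaining 3 groups overlapped. Its 9 h effect was 0.66 ± 0.17 log2 (adjusted p = 0.0217 in limma, 3 of 3 pairs) and was lost without untreated 9 h replicate 1 (0.0539), blocked 9 h replicate 1 (0.068) or 3 (0.0628), or all arrays of replicate 2 (0.154) or 3 (0.167). Its 26 h effect was -0.42 ± 0.17 (adjusted p = 0.117), and it passed without blocked 26 h replicate 1 (-0.61, 0.0399).

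The brightest Nrxn2 probe, A_44_P172825, moved less. Its levels were 3.34, 3.52 and 3.46 on untreated and 3.78, 3.71 and 3.66 on blocked 9 h arrays, and 3.875, 3.77 and 3.78 on untreated and 3.78, 3.70 and 3.67 on blocked 26 h arrays. The 9 h effect was 0.27 ± 0.087 log2 (adjusted p = 0.0513 in limma, and 0.0284 with the replicate block). With a mean over the 3 probes of Nrxn2 in place of this probe, the gene passed at 9 h (0.41, adjusted p = 0.0184) and for time (0.25, 0.044). On the last probe, A_64_P121698, the untreated 9 h arrays ran from -0.43 to -0.020 and the other 9 arrays from 0.075 to 0.35. Its 9 h effect was 0.29 ± 0.11 (adjusted p = 0.105, and 0.0378 with the block). All 3 probes thus shared low untreated 9 h arrays that did not overlap with the blocked 9 h arrays, and their effects at that time ran from 0.27 to 0.66 log2.

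Nrxn3 had overlapping untreated and blocked 9 h arrays on each of its probes. Its bright probe, A_43_P12942, had levels of 1.92, 1.79 and 1.61 on untreated and 1.79, 1.35 and 1.45 on blocked 9 h arrays. At 26 h the levels were 2.06, 1.60 and 1.52 without blockade and 1.87, 1.61 and 1.47 with it. All 4 groups overlapped, and replicate 1 was the highest array in every group. The effects were -0.25 ± 0.18 log2 at 9 h (adjusted p = 0.382 in limma) and -0.077 ± 0.178 at 26 h (0.817). On each of the 6 slides the blocked array was below the untreated array that shared its slide, by a mean of 0.12 on day 1 and 0.20 on day 2, a comparison that sets different times against each other.

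The dim Nrxn3 probe, A_64_P080530, had levels of -1.04, -1.23 and -1.52 on untreated and -0.87, -1.35 and -1.065 on blocked 9 h arrays. At 26 h they were -0.91, -1.08 and -1.17 without blockade and -1.29, -1.78 and -1.73 with it. The 26 h groups parted with the blocked arrays below (-0.55 ± 0.18 log2, adjusted p = 0.0654 in limma, lower in 3 of 3 pairs), while the 9 h groups overlapped (0.16 ± 0.18, 0.581). The call at 26 h was made without blocked 26 h replicate 1 (-0.70, adjusted p = 0.0447). The 2 Nrxn3 probes thus did not run the same course: the correlation over 12 arrays was 0.479, against 0.855 after the group means were removed.

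At 9 h, 6 of 9 member probes had groups that did not overlap, and at 26 h 5 of 9, against 34.2% and 37.8% of all kept probes. Over all 6 blocked and 6 untreated arrays, every member probe overlapped, and only 1.39% of all probes did not. Across the 12 arrays, the levels of the Nlgn2 probe A_43_P13011 and of Nlgn3 correlated at 0.874, those of Nlgn1 and the Nrxn2 probe A_44_P198804 at 0.886, and those of Nlgn1 and Nlgn3 at 0.696. After removal of the group means these values were 0.474, 0.431 and -0.451. These are descriptions over 12 arrays that share slides and scan days.

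The genes most like each member over the 12 arrays, among 12339 named genes outside the family, were found by Pearson's r of their levels. The brightest probe stood for a member with several, namely A_64_P030188 for Nlgn2, A_44_P172825 for Nrxn2 and A_43_P12942 for Nrxn3. The 2 Nlgn2 probes correlated with each other at 0.736 and the 2 Nrxn3 probes at 0.479, so the values need not hold for another probe of the gene. For Nlgn1 they were Zfhx2 (0.975), Zfp575 (0.973) and Xkr6 (0.97), and for Nlgn2 Tmem37 (0.988), Nos2 (0.982) and Pou5f1 (0.98). For Nlgn3 they were Stc1 (0.959), Mapre3 (0.952) and Cdnf (0.95). For Nrxn2 they were Acadsb (0.971), Fnbp1l (0.955) and Tenm2 (0.946). The highest values for Nrxn3 were those of Plekhn1 (0.948), Kat7 (0.918) and Gbf1 (0.913). These values, too, describe 12 arrays that share slides and scan days, and the group means were not removed. Shared regulation was not tested.

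The proteins that neurexins and neuroligins bind, or that process them, were followed through 7 lists of 72 genes, of which 61 were measured. Averaged over both times, 5 of the 61 rose with blockade, 3 fell and 53 did not pass, where 4.35% of all genes represented by 1 probe passed. The median effect of the 61 was 0.013 log2, beside -0.016 over all genes. With the replicate block 18 passed, 8 higher and 10 lower, where 12.7% of all genes did. In bulk RNA, fewer cells of a type and less RNA per cell cannot be told apart.

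Of 20 neurexin ligands and receptors, 16 were measured, and 2 rose, 2 fell and 12 did not pass. Lrrtm2, a postsynaptic leucine-rich repeat receptor that competes with neuroligins for neurexin, had levels of -2.39, -2.32 and -2.54 on untreated and -1.84, -1.96 and -2.17 on blocked 9 h arrays. At 26 h its levels were -1.81, -2.32 and -2.29 without blockade and -1.22, -1.26 and -1.495 with it. The blocked arrays lay above the untreated ones at both times. Its average rise was 0.62 ± 0.11 log2 (1.54-fold, adjusted p = 0.0114 in limma, 6 of 6 pairs), with 0.43 at 9 h and 0.81 at 26 h. Clstn2, a calsyntenin of the postsynaptic membrane, rose by 0.47 ± 0.11 (adjusted p = 0.038, 6 of 6 pairs). This call was lost without any 1 of 9 arrays (untreated 9 h replicates 1 and 2, blocked 9 h replicates 1 and 3, all untreated 26 h arrays, blocked 26 h replicates 1 and 2; 0.0537 to 0.102), with normexp background correction (0.35, 0.085) and with no filter on dim probes (0.0615).

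Both ligands that fell are secreted. Nxph3, a neurexophilin that binds alpha-neurexins, had levels of -4.06, -3.60 and -3.815 on untreated and -4.35, -4.395 and -4.19 on blocked 9 h arrays, and of -4.13, -4.71 and -4.27 on untreated and -5.83, -5.37 and -5.15 on blocked 26 h arrays. It fell by 0.78 ± 0.14 log2 (1.72-fold, adjusted p = 0.0132 in limma, lower in 6 of 6 pairs), with -0.49 at 9 h and -1.08 at 26 h. C1ql2, a C1q-like protein that joins presynaptic neurexin to postsynaptic kainate receptors, had levels of -0.755, -0.52 and -0.18 on untreated and -0.98, -1.09 and -0.81 on blocked 9 h arrays. Its levels at 26 h were -1.55, -1.14 and -1.02 without blockade and -2.22, -2.005 and -1.82 with it. It was lower in 6 of 6 pairs, by 0.63 ± 0.13 on average (1.54-fold lower, adjusted p = 0.0238). The call was lost without any 1 of 7 arrays (untreated 9 h replicate 2, blocked 9 h replicates 1 and 2, untreated 26 h replicates 2 and 3, blocked 26 h replicates 1 and 2; 0.0526 to 0.0704).

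Among 11 regulators of neurexin splicing, 8 were measured and 3 rose. Khdrbs3, an RNA-binding protein that sets the inclusion of an alternative neurexin exon, had levels of 1.445, 1.51 and 1.44 on untreated and 2.22, 2.09 and 1.97 on blocked 9 h arrays. At 26 h its levels were 1.94, 1.86 and 1.79 without blockade and 1.997, 2.08 and 1.96 with it. All 6 blocked arrays thus lay above all 6 untreated ones, a separation that 1.39% of all probes showed. The average rise was 0.39 ± 0.065 log2 (1.31-fold, adjusted p = 0.00862 in limma), with 0.63 at 9 h and 0.15 at 26 h. Rbfox2 rose by 0.45 ± 0.085 (adjusted p = 0.0146, 5 of 6 pairs) and Rbfox1 by 0.32 ± 0.077 (0.0454, 6 of 6 pairs), both splicing factors of neurons. The Rbfox1 call was lost without any 1 of 10 arrays (untreated 9 h replicates 1 and 3, all blocked arrays, untreated 26 h replicates 2 and 3; 0.055 to 0.124) and with median scaling (0.116), the deposited matrix values (0.0852) or no filter on dim probes (0.0728).

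Of the 6 shedding enzymes, which release the outer part of these adhesion proteins, 5 were measured, and Mmp9 fell. Mmp9, a metalloprotease that can cut neuroligin 1, differed by -0.96 log2 at 9 h (adjusted p = 0.0229 in limma) and was at least 1.72-fold lower at 26 h, where its blocked arrays were not well above background. The 26 h bound sets the untreated mean of -6.95 against the dimmest probes well above background on the blocked arrays. Its average difference passed (adjusted p = 0.00404, lower in 6 of 6 pairs) and missed the threshold with normexp background correction (-0.41, 0.0602).

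The scaffolds and the remaining receptors held no gene past the threshold. None of 8 measured neurexin scaffold genes passed, and the largest difference was that of Lin7b, a PDZ adaptor (0.23, adjusted p = 0.188). None of 14 excitatory neuroligin scaffold genes passed, with Dlgap3, a PSD-95-binding protein, at -0.42 (0.0685). None of 7 genes of the inhibitory scaffold passed, nor did any of 3 cerebellin receptors and neuroligin-binding regulators. Without adjustment 1 of 8, 5 of 14, 1 of 7 and 1 of 3 genes of these lists had p under 0.05, where 16.2% of all kept probes did.

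**Figure D3:**
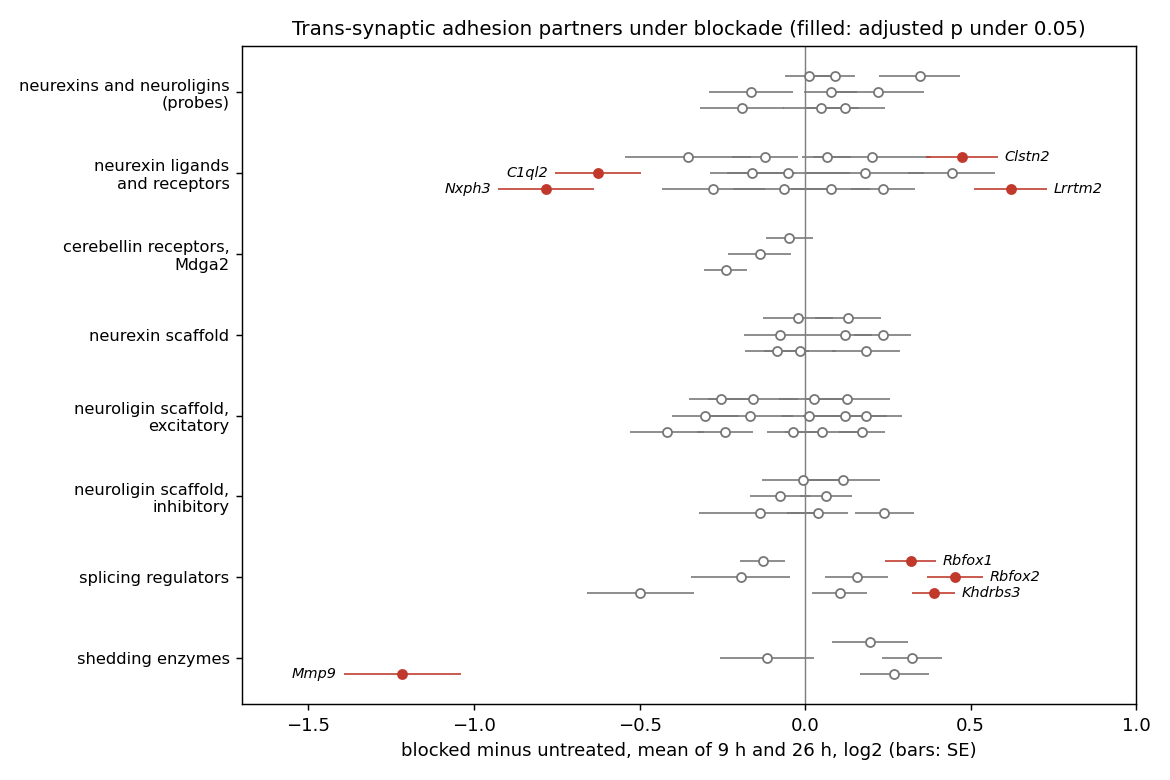
Average effect of blockade (blocked minus untreated, mean of 9 h and 26 h, log2, x axis; bars are SE from limma) for the 9 neurexin and neuroligin probes in the top row and for the 61 measured partner genes by list below; red filled points have an adjusted p under 0.05. All top-row points are open, and the 8 red points lie among ligands, splicing regulators and shedding enzymes; that of Mmp9 is a fitted value with dim blocked 26 h arrays.

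Between 9 h and 26 h, averaged over treatment, 7 of the 61 partners rose and 5 fell, where 12.5% of all genes passed. The comparison uses the same arrays as the blockade average. Among those that rose were Lrrtm4, another leucine-rich repeat receptor (0.68 log2, adjusted p = 0.00209 in limma), Mdga2, which covers the neurexin site of neuroligins (0.49, 0.00904), Lrrtm2 (0.47, 0.0204) and Ppfia2, a liprin of the active zone (0.46, 0.0225). C1ql2 (-0.90, 0.00233), Nxph3 (-0.84, 0.00516), the splicing repressor Ptbp1 (-0.535, 0.0429) and the scaffold Shank2 (-0.46, 0.0253) fell, as did Mmp9 (0.00846), whose blocked 26 h arrays were dim. Leaving out single arrays ended the calls of Lrrtm2 (3 arrays: blocked 9 h replicate 3, blocked 26 h replicates 1 and 2; 0.0506 to 0.0527), Ppfia2 (4: untreated 9 h replicate 3, blocked 9 h replicate 3, untreated 26 h replicate 2, blocked 26 h replicate 1; 0.0501 to 0.0566), Ptbp1 (9: all but untreated 9 h replicate 1, untreated 26 h replicate 3 and blocked 26 h replicate 3; 0.0561 to 0.0969) and Shank2 (8: all but untreated 9 h replicate 1, blocked 9 h replicate 2, untreated 26 h replicate 1 and blocked 26 h replicate 1; 0.0536 to 0.0643). Processing ended those of Lrrtm2 (median scaling 0.0509, deposited matrix values 0.0528), Ppfia2 (0.0584 and 0.0705 with the same), Shank2 (normexp 0.0915, quantile 0.0601), Ptbp1 (no filter on dim probes 0.0657) and Mmp9 (normexp, -0.25 log2, 0.187).

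Markers of excitatory neurons moved with blockade. Of 10 markers, 8 were measured and 4 rose in the average comparison (limma): Neurod2 by 1.235 log2 (adjusted p = 0.000161), Bhlhe22 by 0.68 (0.00909), Neurod6 by 0.56 (0.0112) and Slc17a7, the vesicular glutamate transporter, by 0.525 (0.0147). The summed linear signal of the 8, in units of the array's 75th percentile, ran from 11.1 to 13 in untreated and from 18.8 to 21 in blocked 9 h arrays, and from 14.3 to 19.2 in untreated and from 19.8 to 22.8 in blocked 26 h arrays. Of 11 measured inhibitory markers 1 rose (Dlx1) and 1 fell (Vip), of 9 astrocyte markers 1 fell (Slco1c1), and of 10 oligodendrocyte markers 1 fell (Cspg4). Every measured astrocyte and oligodendrocyte marker had a negative average difference, with medians of -0.20 and -0.282 log2. Beside those that passed, Fgfr3 (0.00585), Slc1a3 (0.0469), Olig2 (0.0253), Pdgfra (0.0372) and Sox10 (0.0336) had an unadjusted p under 0.05 in limma. None of 10 microglial and 7 meningeal markers passed (0 and 2 had an unadjusted p under 0.05). The part of cell makeup in the differences of Lrrtm2, Clstn2, Nxph3, C1ql2, Khdrbs3, Rbfox1 and Rbfox2 was not tested.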

How the data were processed

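Expression was measured on 12 single-colour Agilent arrays, 3 per group. Per the file headers, Feature Extraction 10.5.1.1 made the deposited processed signal, an intensity after background subtraction within the array, with no scaling between arrays. The deposited series matrix holds log2 values, which differ from log2 of that intensity by 1 constant per array. Here, control spots and 3751 spot values flagged as outliers were left out (none of a member), spots of a probe were averaged, and log2 values were set against the 75th percentile of the array. A probe was kept where some group had it well above background on each of its arrays (24024 of 30367). A table of RefSeq transcripts named 18004 probes. The brightest kept probe, by its mean, stood for a partner gene.

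All arrays entered 1 model with a mean per group (limma 3.58.1, R 4.3.3, lmFit and eBayes), with two-sided tests and Benjamini-Hochberg adjustment over all kept probes, and a threshold of 0.05. The procedure was tested on simulated data. The spread between replicates (median within-group SD 0.215 log2) and the number of arrays limit the precision. After the group means were removed, same-numbered blocked and untreated arrays of a time correlated at 0.18 to 0.651, so the replicate number was also fitted as a block; over other same-numbered pairs the range was -0.042 to 0.68. The members and lists were chosen with earlier results of these data known. Named were all members, every partner past the threshold in either average comparison, the largest effect of a list with none, 3 genes most like each member, and 5 activity genes; some partners that this rule names are not reported here. The alternatives were background correction, scaling, filter, outlier spots, array weights, blocks, probe means and left-out arrays.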

Additional observations from a re-analysis of the deposited data

Results flagged for a closer look

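For 5 member probes the effect of blockade differed between the times in a test of that difference, which is also the contrast of the 2 scan days, so the 2 cannot be told apart. The 26 h effect minus the 9 h effect was -1.478 log2 for Nlgn1 (adjusted p = 0.00198 in limma), -1.549 for Nlgn3 (0.00292), -0.683 for the Nlgn2 probe A_43_P13011 (0.00668), -0.979 for the Nlgn2 probe A_64_P030188 (0.0104) and -1.085 for the Nrxn2 probe A_44_P198804 (0.008). The same contrast passed for 27.8% of all kept probes.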

How the results depend on the processing

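No member probe passed in the blockade average under any alternative except Nlgn1 with the slide as a random block (1 probe called). At 26 h the count of member probes called was 7 with array weights (whose estimation did not fully converge), 1 with quantile normalization and 4 with the replicate block. In the time comparison it was 3 with array weights, 3 with the replicate block and 4 with the slide as a random block, and in the contrast of days it was 8, 8 and 3. Leaving out replicates gave 0 to 5 calls at 9 h, 0 to 2 at 26 h, 0 to 2 for time and 0 to 7 for days. Of the partners, 17 passed in the blockade average with array weights, 18 with the replicate block, 14 with the slide as a fixed block and 18 with it as a random block, and 0 to 3 without a replicate. For time these counts were 19, 20, 19 and 23, and 0 to 7. For member probes, the replicate block changed the calls printed in the report, those for time of the Nrxn2 probes A_44_P172825 (adjusted p = 0.0396) and A_64_P121698 (0.0471), and those for days of the same probes (0.0302 and 0.0274) and of the Nrxn3 probe A_64_P080530 (0.00728), and no other member call. The partners whose calls it changed are not named here. Without replicate 2, calls over all probes fell from 1040 to 34 in the blockade average. Small effects changed sign. In the blockade average, array weights gave -0.043 for the Nlgn2 probe A_43_P13011 (normexp -0.031), -0.061 for the Nrxn2 probe A_44_P198804 and -0.002 for A_64_P121698. With a mean over the probes of a gene, Nlgn2 came to 0.01 for time, and Nrxn3 to 0.135 for days and -0.054 for time, where the Nrxn3 probe A_43_P12942 came to -0.005 with array weights and -0.01 with quantile normalization. Quantile normalization gave 0.069 at 26 h for the Nrxn2 probe A_44_P172825. Without single arrays or replicates, the blockade average ran from -0.059 to 0.066 for A_43_P13011, from -0.013 to 0.123 for A_64_P030188 and from -0.067 to 0.28 for A_44_P198804, and A_43_P12942 ran from -0.188 to 0.089 at 26 h and from -0.045 to 0.103 for time. Nlgn3 was dim, with signals of 68.8 to 156.5, and its 9 h effect ran from 0.63 (normexp) to 1.15 (without replicate 2). The causes of these changes were not tested.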
